A study of Homo sapiens with 6 samples.

Results

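The genes described are the subunits of the COP9 signalosome, 9 genes (GPS1, COPS2, COPS3, COPS4, COPS5, COPS6, COPS7A, COPS7B and COPS8) of 11658 protein-coding genes in the deposited gene table, with the 30 protein-coding transcripts listed for them of 30432 in the transcript table. They were found by their gene names. The family was chosen from the fall of COPS7A between the same 2 groups of libraries, so its own values in that contrast are given as a description, without p-values. The 6 RNA-seq libraries are described as coming from MKN45, a cell line derived from a human gastric cancer. In 3 libraries the cells had been transfected with a short hairpin RNA (shRNA) labelled as directed at the transcript tcons_00001221, here called target libraries, and in the other 3 with a control shRNA. An shRNA is cut by the cell into a small RNA that lowers the matching transcript. All cells were grown in DMEM with 10% FBS, and the labels do not say whether the libraries came from separate cultures, so the spread between them may be technical.

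The COP9 signalosome removes the small ubiquitin-like protein NEDD8 from cullins, the scaffolds of the largest family of ubiquitin ligases. A cullin that carries NEDD8 is active, and its release from NEDD8 lets the ligase exchange the receptors that choose its substrates. COPS5 is the metalloprotease that cuts NEDD8 off and COPS6 is its catalytically inactive partner, both with an MPN domain. GPS1, COPS2, COPS3, COPS4, COPS8 and either COPS7A or its paralog COPS7B carry PCI domains, which form the scaffold of the complex. COPS9 is a small acidic subunit outside the list of 9 and is given beside it.

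At the gene level COPS7A was lower in the target libraries while the groups overlapped for its paralog COPS7B and for each of the other 7 subunits. At the transcript level 1 of the 7 listed COPS7A transcripts, COPS7A-006, was far lower. The other 6 were each higher in all 3 target libraries than in any control library. Of the 7, 3 passed the filter on low values, COPS7A-001 and COPS7A-201 through the target libraries only. Among all tested transcripts 9.12% were higher in every target library, so the higher values of the 6 are a description. The FPKM values (fragment counts divided by transcript length and by the mapped total) are the authors'. Log2 changes are target minus control on log2(FPKM + 1), which understates changes of low features, with moderated standard errors (SE) from the limma fit of the whole table. SDs are over 3 libraries.

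The listed COPS7A transcripts differ mostly in where they start, so the annotated start regions are shown first. Both are RefSeq promoter windows on build GRCh38.p14, chromosome 12, plus strand. The first covers positions 6723796 to 6724095, and the second is shown from 6724137 to 6724336. Capitals mark the first 8 bases of each COPS7A transcript of the table that starts there, which are COPS7A-201, COPS7A-006 and COPS7A-004 in the first stretch (the last 2 adjoin) and COPS7A-002, COPS7A-003 and COPS7A-022 in the second (the last 2 adjoin).
first COPS7A start window: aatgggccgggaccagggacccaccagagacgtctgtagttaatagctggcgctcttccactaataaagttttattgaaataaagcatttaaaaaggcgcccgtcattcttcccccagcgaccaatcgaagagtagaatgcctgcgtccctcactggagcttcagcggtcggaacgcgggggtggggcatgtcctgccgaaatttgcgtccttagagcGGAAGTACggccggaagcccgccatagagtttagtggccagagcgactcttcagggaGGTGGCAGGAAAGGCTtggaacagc
second COPS7A start window: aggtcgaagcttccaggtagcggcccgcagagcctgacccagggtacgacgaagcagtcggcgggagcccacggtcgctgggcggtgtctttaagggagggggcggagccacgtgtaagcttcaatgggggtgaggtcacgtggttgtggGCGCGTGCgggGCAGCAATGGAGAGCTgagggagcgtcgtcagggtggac
COPS7A-001 starts 330 bases upstream of COPS7A-006, and its first exon runs through the first window. The start of COPS7A-006 lies 8 bases before that of COPS7A-004 and 57 bases after that of COPS7A-201. COPS7A-002, COPS7A-003 and COPS7A-022 start 216, 227 and 235 bases downstream. The first stretch holds the CCAAT box (CCAAT, both strands searched) once and the GC box (GGGCGG, both strands) 0 times. The second holds the GC box 2 times and the CCAAT box 0 times. TATAAA was in neither. Of 35116 promoter windows of 300 bases, 34.6% hold CCAAT, 45.0% hold GGGCGG and 11.5% hold TATAAA on either strand, while the second stretch is shorter at 200 bases.

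All 7 transcripts share exon 2 of COPS7A-006, in which translation is annotated to begin, except that COPS7A-002 reads through from its start into it as 1 exon. COPS7A-001, COPS7A-002, COPS7A-003 and COPS7A-004 carry a coding sequence identical to that of COPS7A-006, 825 coding bases without the stop codon. These 5 models differ from one another in untranslated sequence alone, at their 5′ ends and in the length of the last exon. COPS7A-022 is an incomplete model that ends after 638 coding bases, all identical. COPS7A-201 skips the third exon of COPS7A-006, of 76 bases, and its annotated coding sequence ends after 186 bases, of which the first 165 are identical. The coding junction after exon 2 is shown for both, with 20 bases on each side and the bases of the next exon in capitals.
COPS7A-006: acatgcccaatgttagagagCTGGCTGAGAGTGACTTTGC
COPS7A-201: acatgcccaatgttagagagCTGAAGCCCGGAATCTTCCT
These lengths and sequences are those of GENCODE 29, where all 31 transcripts of the 9 subunits and COPS9 were found in the same version as in the table. The map of the 7 models shows where each begins, ends and is coding.

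**Figure D1:**
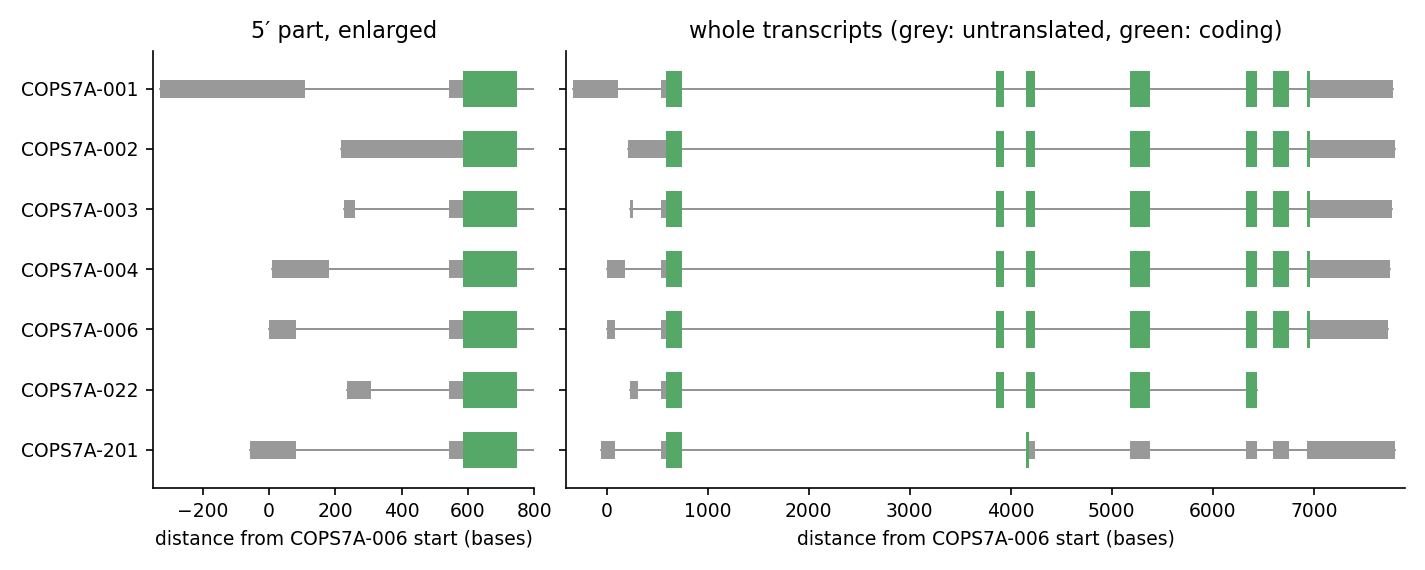
Exon maps of the 7 COPS7A transcripts of the table, from GENCODE 29, against distance in bases from the start of COPS7A-006; the left panel enlarges the 5′ part. Green blocks are coding and grey blocks untranslated. COPS7A-001 begins 330 bases upstream of COPS7A-006 and COPS7A-022 begins 235 bases downstream, and 5 of the 7 models share all coding exons.

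COPS7A is listed on chromosome 12 at 6832907 to 6841041 on GRCh37, plus strand, and overlaps no other gene of the table. Its gene level was 11.03, 12.85 and 10.58 FPKM in control libraries 1 to 3 and 6.77, 6.50 and 6.02 FPKM in target libraries 1 to 3. Every target library lay below every control library. The means were 11.5 ± 1.20 and 6.43 ± 0.380 FPKM (SD, n = 3 per group), so the control level was 1.79 times the target level, and the log2 change was -0.75 with an SE of 0.08. In bulk RNA, fewer cells with the transcript and less of it per cell cannot be told apart.

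COPS7B, the paralog that takes the place of COPS7A in part of the complexes, is listed on chromosome 2 at 232646381 to 232673964, plus strand. It measured 1.74, 1.41 and 0.570 FPKM in the control libraries and 1.16, 1.52 and 1.38 FPKM in the target libraries. The groups overlapped, and control library 3 stood lowest of all 6. Its log2 change was 0.11 with an SE of 0.20, a spread wide enough that a modest difference in either direction could not be seen at this level. COPS7A was the more abundant of the pair in all 6 libraries, at 90.5% ± 4.26 of their summed FPKM in control libraries and 82.6% ± 2.40 in target libraries. The sum of the pair was 12.7 ± 1.55 FPKM in control and 7.79 ± 0.336 FPKM in target libraries. The single COPS7B transcript listed, COPS7B-015, varied still more, at 3.13, 1.16 and 0.245 FPKM in control libraries and 0.806, 0.461 and 1.08 in target libraries. COPS7B overlaps PDE6D on the opposite strand by 4602 bases, and strandedness is not given, so reads of the 2 genes within that stretch cannot be told apart. PDE6D measured 1.396 to 1.84 FPKM in control and 1.67 to 1.87 FPKM in target libraries (limma adjusted p = 0.590).

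Of the catalytic pair, COPS5 on chromosome 8 measured 4.53, 4.23 and 4.66 FPKM in control libraries and 4.87, 5.28 and 4.16 FPKM in target libraries. The target values lay on both sides of the control values, and the log2 change was 0.07 with an SE of 0.08. COPS5 overlaps CSPP1, which measured 1.53 to 1.70 FPKM in control and 1.57 to 1.78 FPKM in target libraries, on the opposite strand by 21358 bases (limma adjusted p = 0.755). COPS6, the inactive partner on chromosome 7, was the most abundant subunit at 22.2, 18.5 and 16.5 FPKM in control and 19.1, 21.0 and 18.3 FPKM in target libraries. The groups overlapped, with a log2 change of 0.04 (SE 0.11).

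Among the scaffold subunits, COPS2 on chromosome 15 measured 13.9, 14.4 and 13.1 FPKM in control libraries and 12.8, 9.53 and 13.3 FPKM in target libraries. Target library 2 was lowest and the other two target libraries were at or near the control values. The COPS2 log2 change, -0.21 (SE 0.12), was the most negative after that of COPS7A. COPS2 overlaps GALK2 on the opposite strand by 6 bases (GALK2 log2 change -0.06, limma adjusted p = 0.835). COPS3 on chromosome 17 was the steadiest, between 9.25 and 10.2 FPKM over the 6 libraries, with a log2 change of -0.01 (SE 0.05). COPS4 on chromosome 4 measured 5.15 to 6.22 FPKM in control and 4.77 to 6.44 FPKM in target libraries, with a log2 change of -0.01 (SE 0.11). GPS1 on chromosome 17 measured 3.62 to 4.12 FPKM in control and 3.24 to 4.22 FPKM in target libraries, with a log2 change of 0.01 (SE 0.10). GPS1 overlaps RFNG on the opposite strand by 1141 bases (RFNG log2 change -0.04, limma adjusted p = 0.872). COPS8 on chromosome 2 measured 3.09 to 3.53 FPKM in control and 3.19 to 3.71 FPKM in target libraries, with a log2 change of 0.05 (SE 0.07). In each of these 5 subunits the groups overlapped. COPS9, on chromosome 2 and listed at 241065980 to 241076224, measured 4.85, 3.82 and 4.63 FPKM in control and 5.34, 5.07 and 4.82 FPKM in target libraries, with overlapping groups and a log2 change of 0.17 (SE 0.09).

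**Figure D2:**
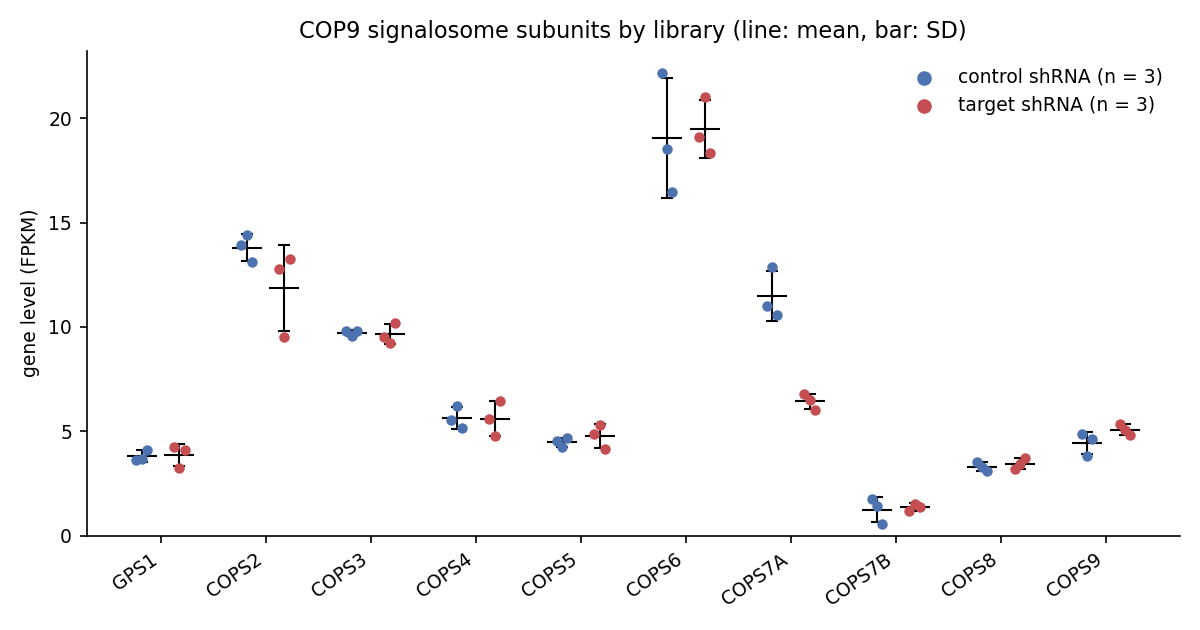
Gene level in FPKM of the 9 subunits and COPS9 in each library, with control libraries in blue, target libraries in red, the mean as a line and the SD as a bar (n = 3 per group). COPS7A is the gene whose groups do not overlap, with means of 11.5 and 6.43 FPKM.

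All 9 subunits passed the filter on low values, which asked for 1 FPKM or more in 3 or more libraries. At an adjusted p threshold of 0.05 over all genes (limma, Benjamini-Hochberg), 1 of the 9, COPS7A, was called lower and 0 were called higher, where 0.215% of the 10675 tested genes were called lower, 0.534% higher and 0.749% in either direction. The groups did not overlap for 1 of 9, with target lower, against 7.18% of all tested genes with target lower and 23.7% in either direction. Because the family was picked from this contrast, these counts are given beside the background and nothing is read from them. The 8 subunits other than COPS7A had log2 changes of -0.21 to 0.11, 5 positive and 3 negative, with a median of 0.02 beside 0.03 over all tested genes. At an unadjusted p under 0.05, 0 of these 8 passed, where 16.1% of all tested genes did. Their FPKM summed to 61.0 ± 3.92 in control and 60.0 ± 1.81 in target libraries. The ratio of COPS7A to the median of the other 8 was 2.27 ± 0.166 in control and 1.24 ± 0.091 in target libraries. Leaving out control library 1 or 3 or any 1 of the 3 target libraries ended the call of COPS7A, with log2 changes of -0.80 to -0.71.

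In the gene table, the order of the deposited FPKM values is given as a description, since the transcript table orders the subunits differently: COPS5-001 alone, at 19.5 FPKM in control libraries, stood above COPS3-001, at 2.86 FPKM, whereas the gene value of COPS3 is above that of COPS5. By mean over the 6 libraries COPS6 stood highest at 19.3 ± 2.03 FPKM (SD, n = 6), and its range did not overlap that of COPS2, at 12.8 ± 1.72. COPS3 measured 9.68 ± 0.317, COPS4 5.62 ± 0.630, COPS5 4.62 ± 0.418, GPS1 3.83 ± 0.382 and COPS8 3.37 ± 0.228 FPKM. COPS7A has no single place in this order. It lay above COPS3 in each control library and below it in each target library. Its pooled mean was 8.96 ± 2.88 FPKM. With COPS7A left out of the order, neighbours from COPS2 down to COPS8 overlapped in range, except that the lowest COPS3 library, at 9.25 FPKM, lay above the highest COPS4 library, at 6.44 FPKM. COPS7B, at 1.30 ± 0.403, was lowest, and its highest library, at 1.74, lay below the lowest of COPS8, at 3.09.

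Among the transcripts, a single COPS7A model was lower in the target libraries. COPS7A-006 measured 14.5, 17.7 and 14.3 FPKM in control libraries and 2.32, 2.08 and 1.99 FPKM in target libraries. The groups were far apart, with means of 15.5 ± 1.93 and 2.13 ± 0.173 FPKM, a control level 7.28 times the target level and a log2 change of -2.39 (SE 0.12). COPS7A-001, with the same coding sequence, measured 0.836, 0.831 and 0.501 FPKM in control and 1.75, 1.71 and 1.48 FPKM in target libraries. COPS7A-003 measured 0.241, 0.350 and 0.229 FPKM in control and 1.21, 0.933 and 1.04 FPKM in target libraries. COPS7A-004, whose start lies 8 bases from that of COPS7A-006, measured 0.455, 0.489 and 0.546 FPKM in control and 1.48, 0.767 and 1.13 FPKM in target libraries. All 3 of these transcripts lay higher in every target library than in any control library. Means of COPS7A-002 were 0.348 and 0.758 FPKM, those of COPS7A-022 were 0.546 and 1.16 FPKM, and those of COPS7A-201 were 0.758 and 1.14 FPKM in control and target libraries, again without overlap. Models that begin upstream, beside and downstream of COPS7A-006 were all higher, and 4 of these 6 did not pass the filter on low values.

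**Figure D3:**
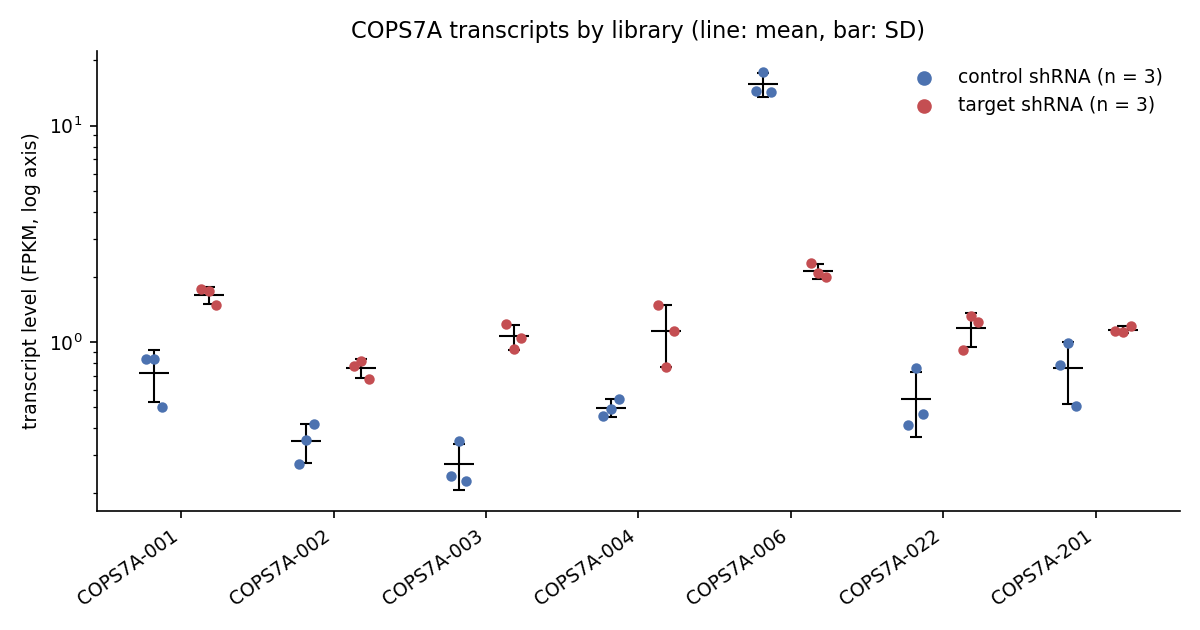
Level of each listed COPS7A transcript in FPKM on a log axis, with control libraries in blue, target libraries in red, the mean as a line and the SD as a bar (n = 3 per group). COPS7A-006 is lower in the target libraries, with means of 15.5 and 2.13 FPKM, and the other 6 are higher.

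Summed over the other 6 transcripts, the level was 3.14 ± 0.565 FPKM in control and 6.89 ± 0.325 FPKM in target libraries. This difference of 3.74 FPKM was 28.0% of the size of the opposite difference in COPS7A-006, 13.4 FPKM. The sum of all 7 was 18.7 ± 2.49 FPKM in control and 9.02 ± 0.489 FPKM in target libraries, so it was lower too, as was the gene value. COPS7A-006 made up 83.2% of that sum in control libraries and 23.6% in target libraries on average, yet it was still the most abundant of the 7 in each target library. The 5 transcripts with the full coding sequence summed to 17.4 ± 2.10 FPKM in control and 6.72 ± 0.713 FPKM in target libraries, which was 93.1% ± 1.19 and 74.4% ± 3.76 of the listed sum. Values of a transcript depend on how the authors' tool divided reads between models that share nearly all of their exons, and the part of this division in the result was not tested.

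Of the 30 transcripts of the 9 subunits, 18 passed the same filter, 3 of the 7 COPS7A transcripts among them. COPS7A-001 and COPS7A-201 passed it only through the target libraries, so their separation is not support for a difference. In the fit over all transcripts 1 of the 18, COPS7A-006, was called lower and 0 were called higher, where 0.139% of 20890 tested transcripts were called lower, 0.148% higher and 0.287% in either direction. The groups did not overlap for 4 of the 18, 2 with target lower and 2 with target higher, where this held for 6.07%, 9.12% and, in either direction, 15.2% of all tested transcripts. These counts come from the contrast that picked the family and carry no weight of their own. Without target library 2 the call of COPS7A-006 was lost, with a log2 change of -2.38.

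Of the 15 tested transcripts of the 8 subunits other than COPS7A, COPS2-003 was the 1 whose groups did not overlap. That is 6.67%, near the 6.07% of all tested transcripts that were lower in every target library, so the COPS2 values are a description of that gene. The 2 listed COPS2 models carry the same reading frame except for 21 bases present in COPS2-003 and absent from COPS2-001, shown in capitals with 20 bases on each side (chromosome 15, GENCODE 29).
COPS2-003: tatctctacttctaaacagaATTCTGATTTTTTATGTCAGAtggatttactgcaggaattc
COPS2-001: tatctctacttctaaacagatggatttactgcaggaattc
COPS2-003 measured 15.4, 12.6 and 11.7 FPKM in control libraries and 9.37, 6.02 and 8.68 FPKM in target libraries. Every target library lay below every control library. COPS2-001, which is annotated with 6628 bases in all against 2036, measured 10.9, 12.3 and 11.2 FPKM in control and 11.5, 8.69 and 12.3 FPKM in target libraries, with overlapping groups. COPS2-003 was thus the larger of the 2 in each control library, at 53.4% of their sum on average, and the smaller in each target library, at 42.4%. Control libraries 2 and 3 were close to even, at 50.6% and 51.1%. The log2 change of COPS2-003 was -0.67 with an SE of 0.19, and that transcript was not among those called. The shares were not tested.

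**Figure D4:**
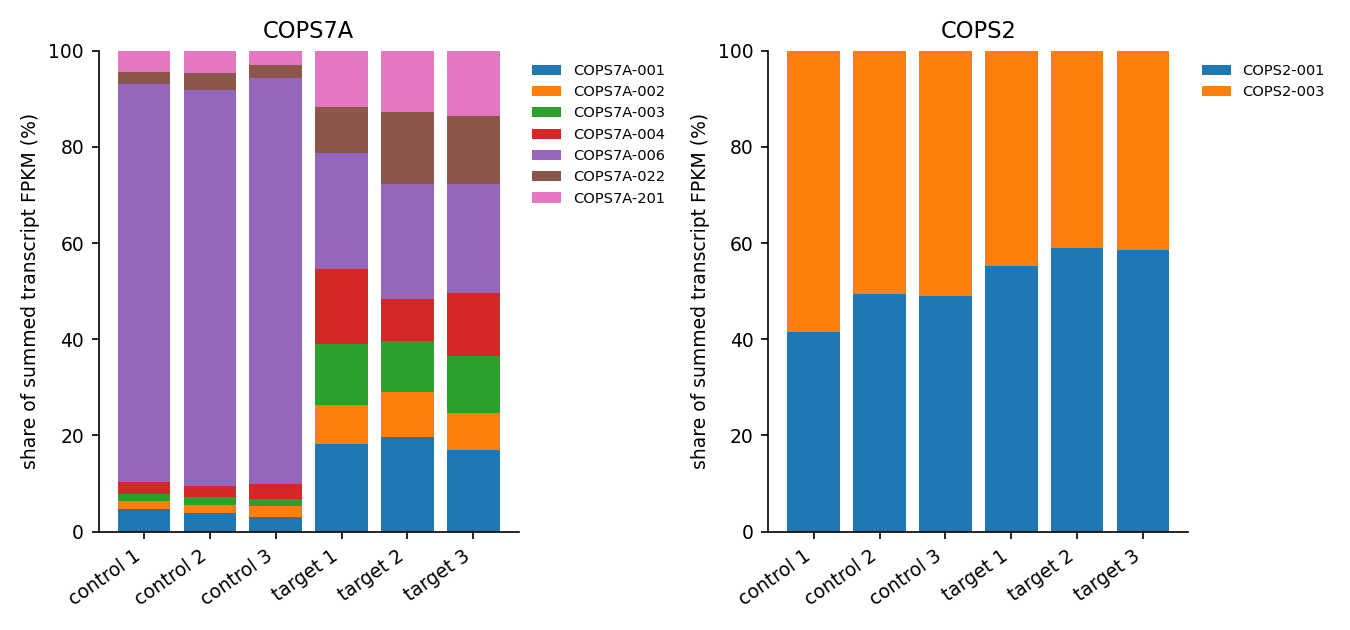
Share of each listed transcript in the summed transcript FPKM of COPS7A (left) and COPS2 (right) for each of the 6 libraries, in percent. COPS7A-006 fills 83.2% on average in control and 23.6% in target libraries, and COPS2-003 fills 53.4% and 42.4%.

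For the remaining subunits, the groups of the leading transcript overlapped. COPS5-001, the 1 transcript listed for COPS5, measured 19.5 ± 0.397 FPKM in control and 19.9 ± 1.75 FPKM in target libraries. COPS6-001 measured 29.4 ± 3.85 and 29.7 ± 1.53 FPKM and made up 95.8% and 96.3% of the COPS6 sum. COPS8-002 measured 5.72 ± 0.595 and 5.72 ± 1.61 FPKM, COPS4-001 6.48 ± 1.72 and 7.65 ± 3.26 FPKM and COPS3-001 2.86 ± 0.961 and 2.65 ± 0.464 FPKM in control and target libraries. GPS1-029 was listed at 0 in control library 2 and measured 3.87 and 6.92 FPKM in the other 2 control libraries, while target libraries held 5.93, 5.02 and 5.997. COPS8-008 was listed at 0 in all control libraries and in target library 2. A pair of low transcripts that did not pass the filter had groups without overlap and target lower, which held for 6.07% of all tested transcripts. They were GPS1-027, with control and target means of 1.46 and 0.453 FPKM, and COPS4-002, with means of 0.714 and 0.217 FPKM.

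Genes that attach NEDD8 or work beside the complex were followed in lists. Of 17 genes of neddylation, 14 were tested, and 0 were called in either direction by limma, where 0.749% of all tested genes were. With so small a share, a count of 0 in a list of this size says little about its genes. At an unadjusted p under 0.05, 2 passed, where 16.1% of all genes did. Their median log2 change was 0.11, with 11 of 14 positive, where the median over all genes was 0.03 and 61.2% were positive. The E2 enzyme UBE2M, which hands NEDD8 to cullins, measured 66.4 ± 1.83 FPKM in control and 71.8 ± 1.41 FPKM in target libraries (limma adjusted p = 0.256). NEDD8 itself measured 6.69, 6.55 and 6.09 FPKM in control and 12.5, 12.5 and 6.91 FPKM in target libraries, with target library 3 near the controls (limma adjusted p = 0.258). Without target library 3 NEDD8 passed, with a log2 change of 0.86, an SE of 0.06 and an adjusted p of 0.0205 (limma). That omission removes the target value nearest the controls, and no other left-out library gave a call in this list. The p is therefore no support for a difference. The transcript table did not show a higher NEDD8 level: NEDD8-001 measured 31.6, 28.7 and 24.3 FPKM in control and 26.7, 26.8 and 26.7 FPKM in target libraries. CAND1, which binds cullins free of NEDD8 and exchanges their receptors, measured 10.6 ± 1.07 and 11.98 ± 0.460 FPKM (limma adjusted p = 0.353).

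Of 34 cullins and subunits of cullin ligases, 33 were tested, and 0 were called by limma, where 0.749% of all tested genes were. At an unadjusted p under 0.05, 6 (18.2%) of the 33 passed, where 16.1% of all tested genes did. Their median log2 change was 0.03, with 22 of 33 positive. The scaffold CUL4A measured 16.02 ± 0.082 FPKM in control and 18.5 ± 0.676 FPKM in target libraries (limma adjusted p = 0.124), and CUL4B 21.3 ± 0.248 and 24.9 ± 1.399 FPKM (limma adjusted p = 0.142). KLHL12, a substrate receptor of CUL3, measured 13.0 ± 0.777 and 15.6 ± 0.673 FPKM (limma adjusted p = 0.145). These 3 genes were named for the smallest p of the list, and in each every target library lay above every control library. Over the 33 tested, the groups did not overlap for 8 with target higher. They did not overlap for 3 with target lower, DDB1, DCAF1 and CRBN. Of all tested genes this held for 16.6% with target higher and 7.18% with target lower. Of 17 enzymes bound to the signalosome and proteins whose stability it affects, 16 were tested. Limma called 0 of the 16, again beside 0.749% of all tested genes, and 3 (18.8%) had an unadjusted p under 0.05. CDT1, a replication licensing factor, measured 86.9 ± 3.86 and 74.3 ± 3.35 FPKM (limma adjusted p = 0.143), JUN 78.1 ± 2.30 and 70.3 ± 0.997 FPKM (0.162) and CSNK2B, the regulatory subunit of casein kinase 2, 34.1 ± 1.27 and 38.2 ± 1.85 FPKM (0.240).

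The lid of the proteasome and the translation factor eIF3 hold PCI and MPN subunits like those of the signalosome. The proteasome list held the lid together with PSMD1 and PSMD2, scaffold subunits of the neighbouring base. Of its 11 genes, all tested, 0 were called by limma, where 0.749% of all tested genes were. At an unadjusted p under 0.05, 5 (45.5%) passed, where 16.1% of all genes did, and the median log2 change was 0.06. The groups did not overlap for 3 of the 11 with target higher and for 2 with target lower. That held for 16.6% and 7.18% of all tested genes, and for 23.7% in either direction. PSMD2 had the smallest p, at 27.5 ± 1.04 and 23.7 ± 0.432 FPKM (limma adjusted p = 0.121). Of 13 eIF3 genes tested, 0 were called by limma, beside the same 0.749% of all tested genes. At an unadjusted p under 0.05, 3 (23.1%) passed, and the median log2 change was -0.03. The groups did not overlap for 1 of the 13 with target higher and for 2 with target lower, near the 23.7% of all tested genes in either direction. EIF3K had the smallest p, at 27.8 ± 0.788 and 30.4 ± 0.202 FPKM (limma adjusted p = 0.231). A miss of the threshold does not show that these genes were equal in both groups.

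**Figure D5:**
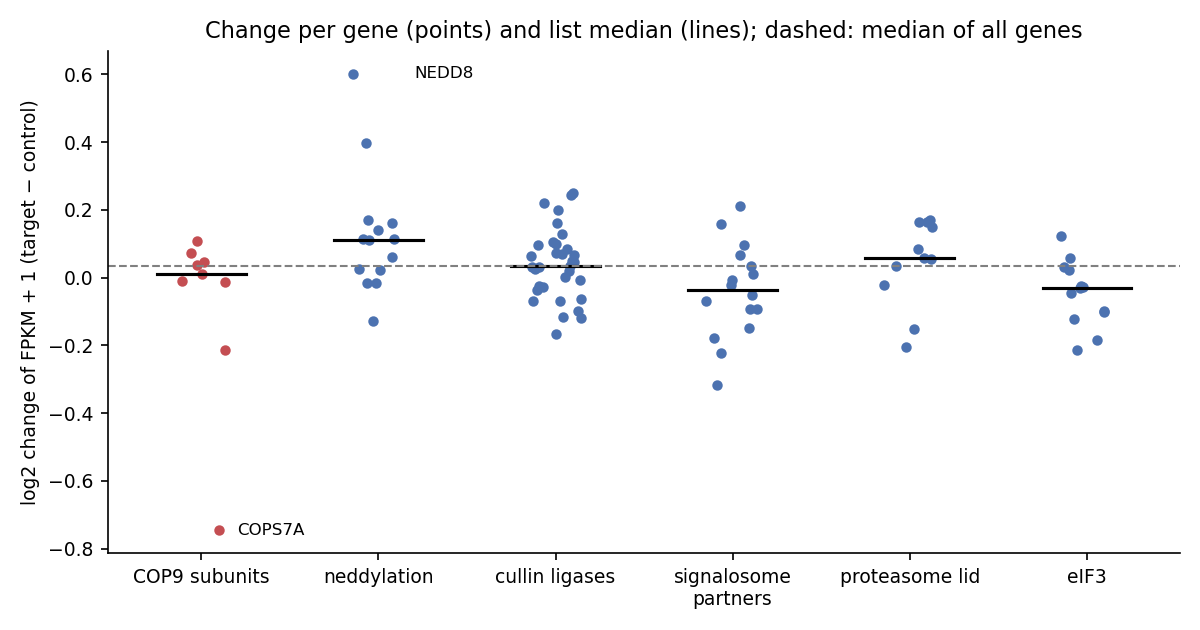
Log2 change of FPKM + 1, target minus control, for each tested gene of 6 lists (points), with the list median as a line and the median of all tested genes, 0.03, dashed. COPS7A at -0.75 lies apart from the other 8 subunits, which span -0.21 to 0.11, and NEDD8 is the highest point of its list at 0.60.

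The 5 tested genes whose profile over the 6 libraries was most like that of COPS7A were found by the root mean square difference of log2(FPKM + 1) from the control mean. They were C7orf55-LUC7L2 (0.126), CPA4 (0.146), ARHGEF18 (0.165), GALNT1 (0.168) and ATF3 (0.183). Among the subunits COPS2 was nearest, at 0.411, and COPS7B farthest, at 0.649. These likenesses rest on 6 libraries of 2 groups and on the level difference between them.

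Facts of the whole series bear on these values in a few ways. The gene FPKM summed to 186226 to 192101 per library, and the number of reads behind them is unknown. Epithelial markers were summed per library at 180 to 200 FPKM in control and 171 to 180 FPKM in target libraries over 6 of 8 listed genes. The other listed markers, CDH1 and KRT19, were searched for by name and not found among the 11658 genes. EPCAM, KRT8, KRT18 and MUC1 overlapped between the groups. CLDN4, a tight junction protein, measured 10.96, 10.03 and 10.63 FPKM in control and 10.55, 0.0586 and 0.175 FPKM in target libraries, so target libraries 2 and 3 stood apart from target library 1. ELF3, an epithelial transcription factor, lay lower in every target library, at 27.5 ± 0.436 FPKM in control and 23.3 ± 0.580 FPKM in target libraries (limma adjusted p = 0.0786). Of 9 gastric and intestinal markers 2 were present, MET at 77.0 to 88.5 FPKM being the one tested. TFF1 was below the filter, at 0.883 ± 0.603 FPKM in control and 0.960 ± 0.122 FPKM in target libraries. Searched for by name, CEACAM5, CEACAM6, CDX1, CDX2, TFF2, TFF3 and VIL1 were not among the 11658 genes, so no level can be given. The 11658 genes include none with a mean under 0.5 FPKM in both groups. The identity of the cell line was not tested. Fibroblast markers, 5 of 10 listed and chiefly COL5A1 and VIM, summed to 473 to 490 FPKM in control and 418 to 437 FPKM in target libraries. Leukocyte markers, 2 of 6 and chiefly CD68, summed to 14.1 to 16.4 and 11.1 to 14.2 FPKM. The epithelial, fibroblast and leukocyte sums all had lower values in target libraries, with overlap between the groups for the epithelial and leukocyte sums and none for the fibroblast sum. Their part in the COPS7A result was not tested. The level of tcons_00001221 itself was not analysed here.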

How the data were processed

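RNA from 3 target and 3 control MKN45 libraries was compared, grouped and numbered by their titles. Total RNA was taken up in Trizol, per the labels' protocols. The deposited values are FPKM for genes and for transcripts, computed by the authors, and the submitters' processing notes name hg19 and GRCh37. The sources used here name no aligner, counting tool, annotation or strand setting (not given in the sources used here). In a search for whole-read steps among low values, at most 38.0% per library lay within 0.1 of a whole multiple. The search took the lowest of the other libraries as a single read, so it cannot decide whether values rest on whole reads. Depth is unknown and no counting error can be given. No gene in the table has a group mean under 0.5 FPKM in both groups.

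Values were fitted as log2(FPKM + 1) with limma-trend (limma 3.58.1, R 4.3.3) over every feature that reached 1 FPKM in 3 or more libraries, adjusted by Benjamini-Hochberg at 0.05. Fits were also run on simulated data with independent noise in each library. The spread between the deposited libraries may be technical, so that simulation cannot judge the calls made here. Tables were joined with pandas 2.3.3. Members and lists were chosen with earlier results of these data known. Named genes were all subunits and their transcripts, up to 3 list members of smallest p, genes overlapping a subunit, and the 5 profiles most like COPS7A. Start windows come from RefSeq (GRCh38.p14) and were matched to GENCODE 29 transcript starts, and coordinates of genes are GRCh37 as deposited. Alternatives were other pseudocounts and filters, quantile and median scaling, limma without trend or robust, the replicate block, left-out libraries, sums of transcripts and sums over overlapping genes.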

Additional observations from a re-analysis of the deposited data

How the results depend on the processing

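The settings refit the same values that picked the family, so for COPS7A they describe dependence on processing and give no support. The log2 change of COPS7A stayed negative in all 17 other settings, from -0.97 to -0.67, and its call held in 11 of them. It moved by more than the spread between replicates when the listed transcripts were summed, to -0.97. Leaving out a library gave -0.80 to -0.67. COPS7A-006 stayed negative in 15 settings, which were added after seeing the data, and was -2.80 and -2.85 with pseudocounts of 0.1 and 0.01, and -2.45 to -2.30 with a library left out. COPS7B was -0.34 as its single transcript and positive in 14 of 16 settings. Of all genes, 80 were called, 52 when the mean had to reach 5 FPKM and 22 to 44 with a library left out. Of all transcripts, 60 were called, 18 when the mean had to reach 5 FPKM, 39 and 15 with pseudocounts of 0.1 and 0.01, and 13 to 44 with a library left out. With the replicate block, which is not backed by the labels (same-numbered libraries correlated at -0.013, 0.019 and 0.066 in their deviations, across genes), 10 genes and 0 transcripts were called, COPS7A and COPS7A-006 not among them. The neddylation list had 0 to 1 genes called with a library left out. The other 4 lists had 0 called in every setting run, where 0.749% of all tested genes were called in the main fit. Depth is unknown, so the lowest values, such as COPS7B and 6 COPS7A transcripts, carry a counting error that cannot be stated.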

Other observations

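The gene value and the transcript values of a subunit were not on one footing in the 2 deposited tables. COPS5 measured 4.47 ± 0.220 FPKM as a gene in control libraries, while its single listed transcript, COPS5-001, measured 19.5 ± 0.397. COPS9 measured 4.43 ± 0.542 FPKM as a gene and COPS9-005 measured 20.9 ± 2.18. For COPS7A the gene value in control libraries was 11.5 ± 1.20 FPKM and the sum of the 7 transcripts 18.7 ± 2.49. Levels are therefore compared within a table only. For COPS9-005 every target library lay above every control library, at 25.7, 24.0 and 23.1 against 22.4, 18.4 and 22.0 FPKM, whereas the groups of the COPS9 gene value overlapped. Such a separation held for 9.12% of all tested transcripts. COPS9-005 was not called, with a log2 change of 0.21 (SE 0.10).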
